A study of Caenorhabditis elegans with 2 samples.

Results

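The nuclear tRNA gene loci of Caenorhabditis elegans were described as targets in a chromatin immunoprecipitation and sequencing (ChIP-seq) experiment on the protein F10E7.11. The members were all 612 nuclear genes of biotype tRNA in the Ensembl annotation of WBcel235, out of 46890 annotated nuclear genes. A region of a deposited peak list was counted at a tRNA gene when its summit lay within 250 bp of the gene body. By this rule 426 of the 18286 pooled candidate regions lay at tRNA genes, and they served 415 of the 612 genes. The rule used no signal value. Worms were of strain OP658, genotype unc-119(tm4063) III; wgIs658, in which F10E7.11 carries a GFP-FLAG tag at its C terminus. Both sexes were pooled, and whole young adults were taken 63 hours after synchronisation as starved L1 larvae. The experiment held 1 group of 2 biological replicates with no second genotype or treatment, and chromatin was precipitated with an anti-GFP antibody. Both replicates carried the transgene. Control libraries were not used here. The values below rest on a pooled candidate list, a candidate list for each replicate, and a list of 575 peaks that passed the irreproducible discovery rate (IDR) procedure, which judges peaks by how alike they rank between replicates. The 575 IDR peaks were the 575 strongest pooled regions by the caller's signal value. Read depth is unknown from these lists.

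A tRNA gene is transcribed by RNA polymerase III from a promoter that lies inside the gene itself. Its A box and B box, which encode the D arm and the TΨC arm of the tRNA, are bound by the factor TFIIIC, which recruits TFIIIB upstream of the start. Transcription ends at a run of T residues just downstream of the gene. The amino acid that a tRNA carries defines its isotype, and the anticodon is the triplet that pairs with the codon.

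Genes at strong IDR peaks at single tRNA genes are shown first, with at most 1 for each isotype. They are not the strongest throughout: the single genes F17H10.t1 (Gly, signal 267), C28G1.t1 (Glu, 253) and T21B4.t1 (Ile, 233) had stronger peaks than the Ala and Lys genes shown, and their sequences are not printed. They are followed by the strongest histidine gene, an isotype without an IDR summit. Each line runs 5′ to 3′ from the first base of the gene to 20 bases beyond its end, in WBcel235. Capitals mark the A box word, the anticodon, the B box word and the downstream run of T, each where a search found it. The Leu gene lies at X:13665555-13665673 on the plus strand, the Arg gene at X:8036685-8036757 on the minus strand and the Val gene at X:13307034-13307106 on the plus strand. The Gln gene lies at V:16592237-16592308, the Ala gene at X:6292278-6292349 and the Lys gene at X:14063946-14064018, all on the minus strand, and the His gene at IV:16388456-16388527 on the plus strand.
C04A11.t1 (Leu, anticodon CAA, pooled signal 339): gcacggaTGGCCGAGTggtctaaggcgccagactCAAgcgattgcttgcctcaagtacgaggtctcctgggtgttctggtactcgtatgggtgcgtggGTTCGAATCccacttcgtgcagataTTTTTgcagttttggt
C18A11.t2 (Arg, ACG, 309.5 at a summit 193 bp past the gene and 223 at one inside it): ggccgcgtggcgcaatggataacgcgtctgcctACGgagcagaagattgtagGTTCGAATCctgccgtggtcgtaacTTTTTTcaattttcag
R04D3.t2 (Val, TAC, 293): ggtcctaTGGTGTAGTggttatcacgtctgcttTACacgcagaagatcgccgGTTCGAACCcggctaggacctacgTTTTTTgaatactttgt
T03E6.t1 (Gln, CTG, 262): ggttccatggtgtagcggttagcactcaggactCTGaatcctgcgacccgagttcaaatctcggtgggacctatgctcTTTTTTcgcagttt
T07H6.t2 (Ala, TGC, 228): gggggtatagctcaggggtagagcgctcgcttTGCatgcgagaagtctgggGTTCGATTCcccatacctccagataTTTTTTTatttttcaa
C33G3.t2 (Lys, TTT, 227): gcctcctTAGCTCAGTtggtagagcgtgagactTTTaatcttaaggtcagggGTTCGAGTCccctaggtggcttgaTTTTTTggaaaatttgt
Y7A9D.t1 (His, GTG, 132, no IDR summit): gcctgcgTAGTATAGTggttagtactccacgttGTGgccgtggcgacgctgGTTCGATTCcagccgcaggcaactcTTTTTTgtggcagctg
All 7 genes had a downstream run of at least 4 T. The Gln gene held neither word, while the Leu, Val, Lys and His genes held both, so the words did not separate the His gene from the others.

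Regions at tRNA genes were a small share of the candidate list and a larger share of its strong end. They made up 2.33% of the pooled list and 14.8% of the IDR list, where 85 of 575 peaks lay at 95 tRNA genes. Counted the other way, 85 of the 426 regions were IDR peaks (20%, exact Clopper-Pearson 95% interval 16.3 to 24.1%), against 3.14% of all pooled regions. A q-value under 0.05 was given by the caller to 125 of the 426 (29.3%, 25.1 to 33.9%), against 5.45% of all pooled regions. Of the 612 genes, 95 had an IDR summit (15.5%, 12.7 to 18.6%), while 0.322% of genome tiles of 572 bp, the median gene with 250 bp on each side, held an IDR summit. These intervals cover the number of genes or regions only. Neighbouring genes share summits and identical copies share sequence, so the genes are not independent.

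The same held in each replicate. In replicate 1, 439 of 18116 candidate regions lay at tRNA genes, and 78 of them were among its 575 strongest (17.8%, 14.3 to 21.7%), against 3.17% of all its regions. In replicate 2, 393 of 25275 lay at tRNA genes, and 57 were among its 575 strongest (14.5%, 11.2 to 18.4%), against 2.27%. There were 323 genes with a region in all 3 candidate lists and 128 with a region in none.

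The caller's signal placed most of these regions high in each list, with a long tail of weak ones. The median signal percentile, where 100 is the strongest region of a list, was 87.2 in the pooled list (quartiles 61.8 and 95.6), 86.0 in replicate 1 and 82.9 in replicate 2. The top 10% of the list held 191 of the 426 pooled regions (44.8%), 187 of the replicate 1 regions (42.6%) and 152 of the replicate 2 regions (38.7%). The part of the pooled list below the 50th percentile still held 85 of the 426 (20%), down to rank 18150. These are regions and not loci, since some weak regions overlapped a stronger one at the same gene. Examples, picked after their values were seen, are the F15G9 pair (ranks 45 and 5987) and F35A5.t1 (ranks 233 and 13143). By each gene's strongest region the median percentile was 89.5. The very top held no tRNA gene: none of the 25 strongest pooled regions, 9 of the next 75 (12%), 29 of the next 188 (15.4%) and 47 of the 287 after those (16.4%), which end the IDR list. From there the share was 9.41% to rank 1000, 7.90% to rank 2000, 2.9% to rank 5000 and 1.02% beyond. The 25 strongest regions of replicate 1 held 1 at a tRNA gene and those of replicate 2 held 0. Within the IDR list the tRNA peaks were middling, with signals of 155 to 339 and a median of 183, against 186 for the whole list.

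**Figure D1:**
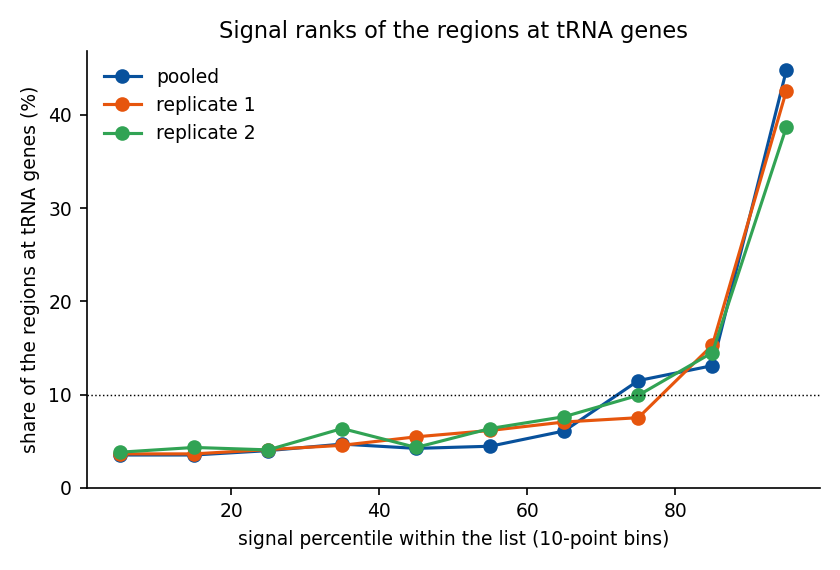
The share of the regions at tRNA genes (y axis, percent) in each 10-point bin of signal percentile (x axis) is plotted for the pooled list and for each replicate, and the dotted line marks the 10% that all regions of a list have in each bin. The top bin holds 44.8% of the pooled regions at tRNA genes, 42.6% in replicate 1 and 38.7% in replicate 2, and every bin below the 60th percentile holds less than 10% in all 3 lists.

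The strongest locus was C04A11.t1, the only Leu CAA gene of its sequence and one that holds an intron. Its region X:13665368-13665803 had a signal of 339 in the pooled list (rank 28), 263 in replicate 1 (rank 23) and 70.4 in replicate 2 (rank 135). Signals are comparable only within a list, so the ranks are what can be set side by side. The second peak, X:9743389-9743824, lay over the Ala pair F15G9.t1 and F15G9.t2 inside an intron of him-4, which encodes the extracellular matrix protein hemicentin. Its pooled signal was 311 (rank 45), with 218 in replicate 1 (rank 53) and 92.9 in replicate 2 (rank 45, the strongest tRNA locus there). C18A11.t2, an Arg gene not inside a protein-coding gene, had 2 overlapping IDR peaks. The stronger, X:8036274-8036709, had pooled signal 309.5 (rank 47) and a summit 193 bp past the gene's 3′ end. The other, X:8036475-8036910, had its summit inside the gene and signal 223 (rank 146). Both matched the same replicate regions, with 230.0 in replicate 1 (rank 41) and 87.5 in replicate 2 (rank 55). These 3 loci are also the 3 strongest on X.

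R04D3.t2 (Val) followed with pooled signal 293 (rank 54), 219 in replicate 1 (rank 51) and 73.4 in replicate 2 (rank 114). One peak of signal 289.6 (rank 56) lay between the divergent genes M02F4.t2 (Glu) and M02F4.t1 (Gly), with ranks 42 and 205 in the replicates. F17H10.t1 (Gly GCC) lay in an intron of snx-17, a sorting nexin gene, at pooled signal 267, and ranked 99 and 81 in the replicates. All 6 of these strongest loci were on X.

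The first autosomal locus was T03E6.t1 (Gln CTG) on chromosome V, with pooled signal 262 (rank 83) and replicate ranks 93 and 99. Its summit lay 116 bp upstream of the gene and also in the promoter of srh-269, a chemoreceptor-family gene. The other strongest loci were C28G1.t1 (Glu TTC, X, 253), F22G12.t1 (Val AAC, I, 250.2), R04A9.t1 (Gln TTG, X, 246), T21B4.t1 (Ile, in an intron of the collagen gene col-85, II, 233) and R11.t1 (Tyr, X, 230.0). The summit at C28G1.t1 also lay in the promoters of C28G1.2 and sec-15, and that at R04A9.t1 in the promoter of ZK1193.2. The caller's q-value was 0.00183 for each of the 12 peaks. In replicate 1 these 12 ranked between 23 and 140, and in replicate 2 between 45 and 312, so all 12 were among the 575 strongest of both.

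Nearly every isotype was represented. An IDR summit was found at 1 gene or more of 19 of the 21 nuclear isotypes, and 17 had a gene among the 575 strongest regions of both replicates. Against 15.5% of all genes, Thr had 9 of 34 genes with an IDR summit (26.5%, 12.9 to 44.4%) and Asp 6 of 27 (22.2%, 8.62 to 42.3%). Of the 9 Thr genes, C16C8.t2 and W10G11.t2 were counted through summits nearer to a neighbouring Lys gene. By the 575 strongest regions of each replicate the counts differed, with 6 Thr genes in replicate 1 and 4 in replicate 2, and 2 and 5 Asp genes. Gly had 10 of 55 with an IDR summit, Lys 9 of 46 and Arg 8 of 44. Leu had 7 of 39, Ile 6 of 29 and Val 6 of 31. Ala had 5 of 34, Glu 5 of 41, Pro 5 of 42 and Ser 5 of 39. The isotypes with fewer genes had 3 of 19 for Tyr, 2 each for Asn, Cys, Gln, Met and Trp, and 1 for Phe. With 12 to 55 genes for each of these isotypes the intervals are wide. The interval of every isotype, also that of His below, holds the 15.5% of all genes, so their order is not resolved.

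His was the only isotype with several genes and no IDR summit, at 0 of 20 (upper limit 16.8%). It also had 0 genes among the 575 strongest of replicate 1 and 0 in replicate 2. Of the His genes 9 had a pooled candidate region, and the strongest, Y7A9D.t1, had signal 132 (rank 1028). The single selenocysteine gene, K11H12.t1, had a candidate region of signal 91.2 (rank 4022). The strongest gene of each remaining isotype had an IDR peak: Lys C33G3.t2 at signal 227, Asn F41D9.t3 at 223, Trp B0523.t1 at 211, Ser E03E2.t1 and Thr C16C8.t2 at 205, and Cys C37A2.t1 at 203. The summit counted for C16C8.t2 lay inside the neighbouring Lys gene C16C8.t1. Met T15B12.t1 had 196, Pro T23F1.t2 184, Asp T14F9.t1 183 and Phe F32A6.t1 174. Several lie inside known genes. E03E2.t1 is in an intron of cat-1, the vesicular monoamine transporter gene, and C37A2.t1 in one of cye-1, which encodes cyclin E.

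**Figure D2:**
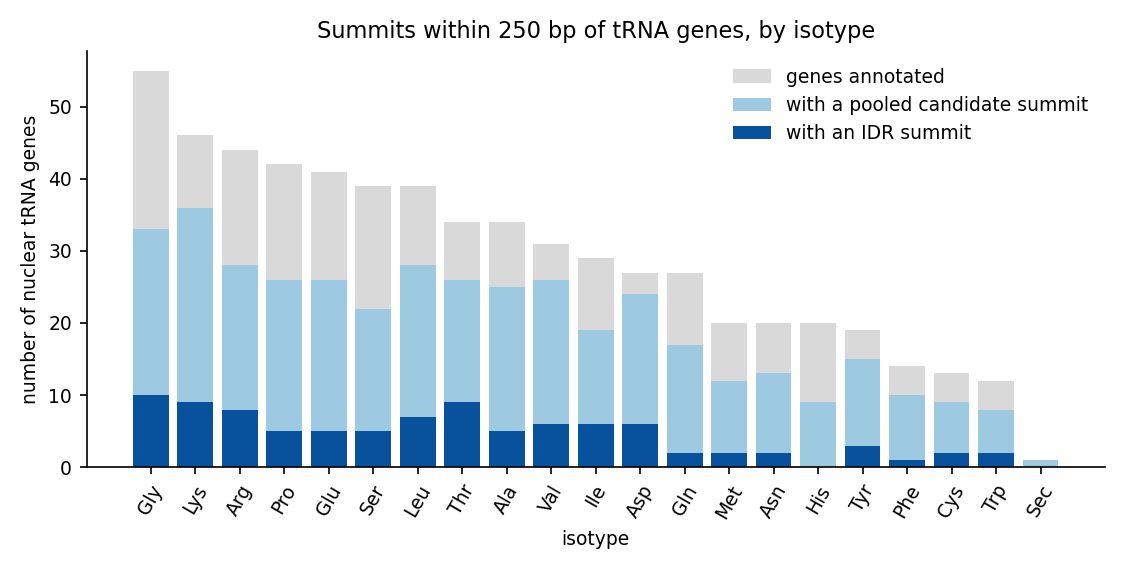
For each isotype (x axis) the number of nuclear tRNA genes (y axis) is drawn as annotated genes in grey, those with a pooled candidate summit within 250 bp in light blue and those with an IDR summit in dark blue, all from 0. His has 20 genes, 9 with a candidate summit and 0 with an IDR summit, while Thr has 9 of 34 with an IDR summit.

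Counts by anticodon within an isotype are small, and are read against the 15.5% of all genes. Leu AAG, the most common Leu anticodon, had no IDR summit at 19 genes, although 10 had a candidate region, while Leu CAA had 2 of 7, CAG 2 of 5, TAG 2 of 3 and TAA 1 of 3. By the 575 strongest regions, Leu AAG had 1 gene in each replicate, CAA 2 in each, CAG and TAG 2 each in replicate 1 and 1 each in replicate 2, and TAA 1 and 0. Ser TGA had 0 of 9, against 2 of 6 for CGA, 2 of 9 for GCT and 1 of 15 for AGA. Pro TGG had 5 of 31, while AGG had 0 of 6 and CGG 0 of 4. Thr TGT had 4 of 9 and AGT 4 of 17. These anticodons were picked out after their values were seen, and the differences between them were not tested.

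Most tRNA genes have identical copies elsewhere in the genome. The 612 genes had 200 distinct sequences, and 469 genes had at least 1 identical copy. Of the 57 sequences with copies, 38 had members both with and without an IDR summit, 19 had no member with one, and in 0 did all members have one. The largest family, 29 identical Gly TCC genes, had 21 members with a candidate region, whose signals ran from 70.4 to 289.6 with a median of 125, and 6 with an IDR summit. The 25 identical Lys CTT genes had 20 and 6, with signals of 56.6 to 205. The 10 identical Arg ACG genes, all on X, had 10 and 4, with signals of 70.6 to 309.5. Genes of 1 sequence thus spanned from weak candidates to some of the strongest loci. How reads from identical copies were placed is not given in the sources used here. Genes with no copy had an IDR summit in 12 of 143 cases (8.39%, 4.41 to 14.2%) and genes with a copy in 83 of 469 (17.7%, 14.3 to 21.5%). With a full anticodon stem of 5 pairs required, genes with no copy had one in 12 of 112 cases (10.7%, 5.66 to 18.0%), an interval that overlaps that of genes with a copy. The difference was not tested.

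tRNA genes on X had an IDR summit more often than those on the autosomes. The shares were 57 of 276 on X (20.7%, 16 to 25.9%) and 38 of 336 on autosomes (11.3%, 8.13 to 15.2%). They were 20.3% and 9.52% by the 575 strongest regions of replicate 1, and 14.1% and 7.74% by those of replicate 2. The difference was not tested. X held 51 of the 85 IDR peaks at tRNA genes (60%) and 198 of the 426 pooled regions at tRNA genes (46.5%). Of all IDR peaks it held 105 of 575 (18.3%), and of all tRNA genes 276 of 612. The median signal percentile of the pooled tRNA regions was 91.5 on X (n = 198) and 82.3 on autosomes (n = 228), while for all pooled regions it was 49.6 and 50.1. Among genes with no identical copy, 5 of 57 on X (8.77%, 2.91 to 19.3%) and 7 of 86 on autosomes (8.14%, 3.34 to 16.1%) had an IDR summit, shares that are close but rest on few genes. Those of them with a candidate region had a median percentile, by each gene's strongest region, of 90.7 on X and 84.5 on autosomes. Among genes with copies the shares were 52 of 219 (23.7%, 18.3 to 29.9%) and 31 of 250 (12.4%, 8.58 to 17.1%). By autosome the counts were 7 of 66 on I, 8 of 57 on II, 11 of 64 on III, 6 of 71 on IV and 6 of 78 on V.

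Position inside a protein-coding gene made a smaller difference. Genes not wholly inside such a gene are called outside here, also where they overlap one in part. Of 322 tRNA genes outside 57 had an IDR summit (17.7%, 13.7 to 22.3%), and of 290 inside 38 did (13.1%, 9.44 to 17.5%). The intervals overlap. On X the shares were 40 of 180 outside and 17 of 96 inside, and on autosomes 17 of 142 and 21 of 194. Genes on the strand of their host had an IDR summit in 20 of 167 cases and those on the opposite strand in 18 of 123.

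Single genes and genes with a neighbour within 500 bp had similar shares, 69 of 442 (15.6%, 12.4 to 19.3%) and 26 of 170 (15.3%, 10.2 to 21.6%). The order differed by chromosome: on X the counts were 40 of 168 single genes (23.8%, 17.6 to 31.0%) and 17 of 108 clustered ones (15.7%, 9.45 to 24.0%), and on autosomes 29 of 274 (10.6%, 7.2 to 14.8%) and 9 of 62 (14.5%, 6.86 to 25.8%). The intervals overlap in both. The clustered genes were also split by group size. In groups of 2, 25 of 122 genes had an IDR summit (20.5%, 13.7 to 28.7%), and in groups of 3 or more, all on X, 1 of 48 did (2.08%, 0.0527 to 11.1%). Of the 48, 1 had a summit among the 575 strongest of replicate 1 and 3 in replicate 2. One summit can serve both genes of a pair: 11 of the 85 IDR peaks lay at 2 genes each, so genes of a group are not independent. Counted by group, 11 of the 61 pairs had an IDR summit at both genes and 3 at 1 gene. Of the 13 larger groups 1 had an IDR summit. The difference by group size was not tested. The largest group, 6 identical His genes F28H6.t2 to F28H6.t7 at X:14135045-14137010, had no region in any of the 3 candidate lists. The 5 Arg and Cys genes of K01A12 at X:8623603-8624532 all had a candidate region, the strongest with signal 116 (rank 1569). Of the 5 Gln genes of H08J11 at X:9090627-9091628, 4 had one, up to signal 93.1 (rank 3714). The 1 gene of a larger group with an IDR summit was R11.t1, at the upstream end of 4 identical Tyr genes that run on the minus strand. Its signal was 230.0, while R11.t2 and R11.t3 had 86.8 and R11.t4 had 89.3.

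**Figure D3:**
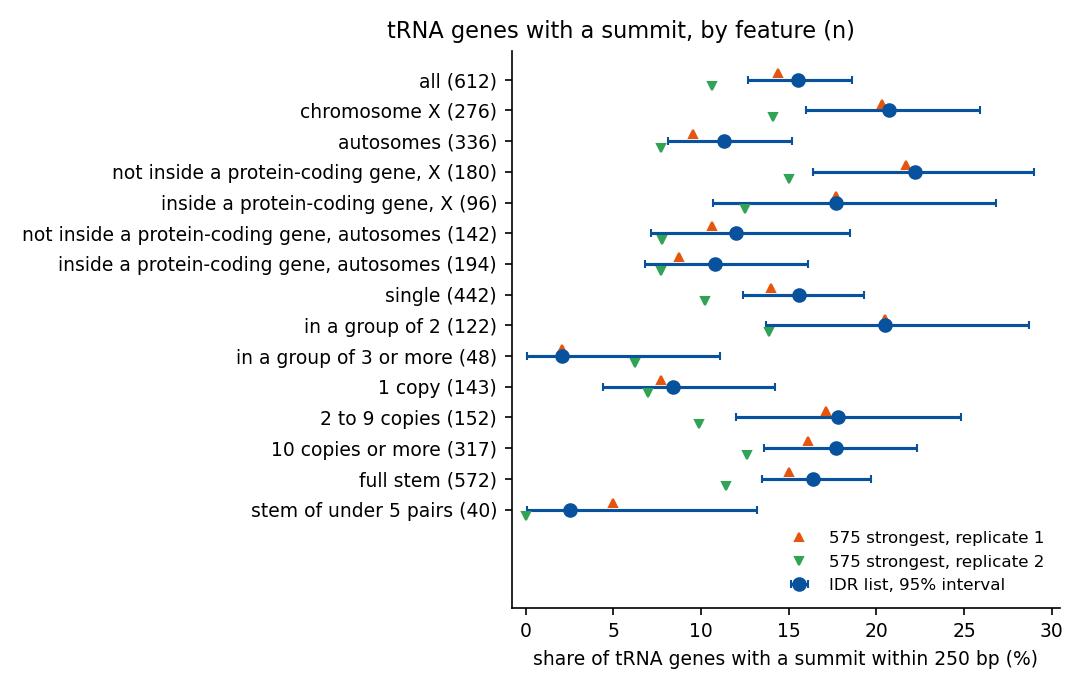
The share of tRNA genes with a summit within 250 bp (x axis, percent) is plotted by feature, with the number of genes in brackets. Dark points are the IDR list with exact 95% intervals, and triangles are the 575 strongest regions of replicate 1 (upward) and replicate 2 (downward). X lies above the autosomes in all 3, at 20.7% and 11.3% in the IDR list, and groups of 3 or more lie at 2.08%.

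Within the 250 bp that the rule allows, most IDR summits lay on or close to the genes. The rule itself sets the range of these positions. In bins of 50 bp reaching 1500 bp either way, without that limit, IDR summits were most frequent from 0 to 50 bp (31) and -50 to 0 bp (16). At single genes the 70 IDR summits had a median position 22 bp downstream of the 5′ end along the gene's strand (quartiles -6.00 and 59.0), and 59 of them (84.3%) lay inside the gene or within 50 bp of it. Of these 70, 38 were inside the gene (54.3%), 20 upstream (28.6%) and 12 downstream (17.1%). The 343 candidate summits at single genes had a median of 33 bp, with 40.8% inside, 30.9% upstream and 28.3% downstream. Medians were 14.0 bp for the 575 strongest of replicate 1 (n = 63, 54.0% inside the gene) and 13.0 bp for those of replicate 2 (n = 45, 37.8% inside). Of all candidate summits at single genes 39.6% were inside in replicate 1 and 31.9% in replicate 2. All 85 IDR peaks were 436 bp wide, wider than any tRNA gene (64 to 122 bp), and the summits of the 2 replicates lay a median of 36.0 bp apart, so positions of the A box (median position 8 of the gene) and the B box (position 53) are not separated by these summits.

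**Figure D4:**
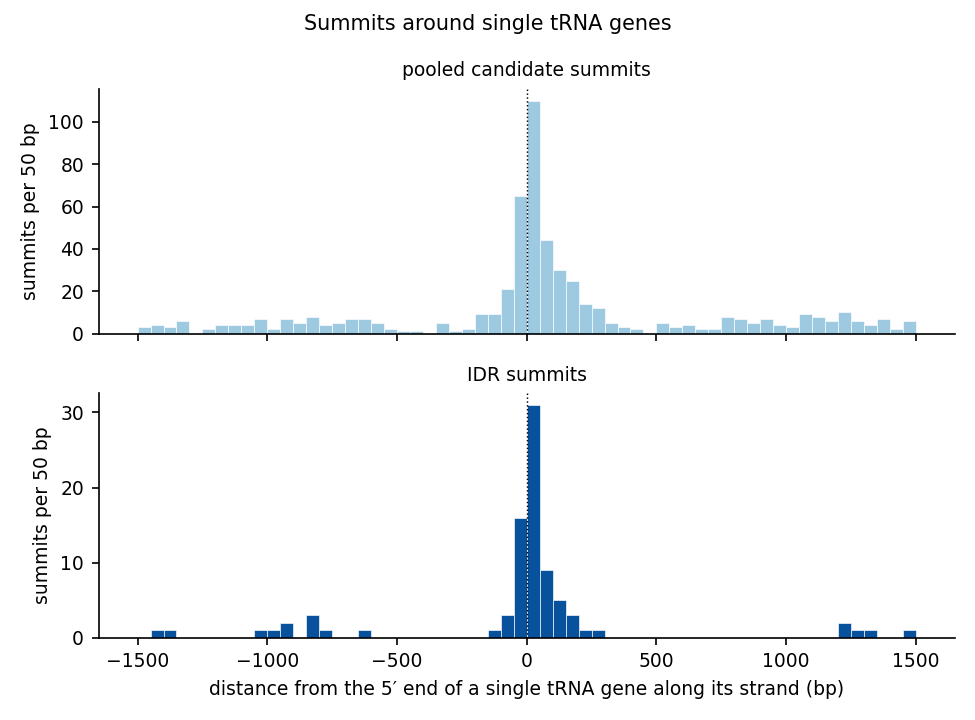
The number of summits in each 50 bp bin (y axis) is plotted against the distance from the 5′ end of a single tRNA gene along its strand (x axis, bp), for pooled candidate summits above and IDR summits below. Both peak in the bin just downstream of the 5′ end, and the IDR summits within 250 bp of a gene have a median of 22 bp.

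Genes with an incomplete anticodon stem, the helix that holds the anticodon loop, seldom had an IDR summit. Genes with a full 5-pair anticodon stem had an IDR summit in 94 of 572 cases (16.4%), and those with fewer pairs in 1 of 40 (2.50%, 0.0633 to 13.2%). That 1 gene was the Met gene C02F12.t1, named for this reason only, with 4 pairs and signal 168. Of the 40, 14 had a candidate region (35.0%), 2 were among the genes at the 575 strongest regions of replicate 1 and 0 in replicate 2. The 143 genes with no identical copy included 112 with a full stem, so most genes with an incomplete stem had no copy. Stem and copy number were not told apart. Genes that held the A box word TNGNNNAGT had an IDR summit in 69 of 385 cases (17.9%) and those without it in 26 of 227 (11.5%). For the B box word GTTCGANNC the counts were 71 of 441 (16.1%) and 24 of 171 (14.0%). Genes with both words had one in 48 of 255 cases (18.8%, 14.2 to 24.2%) and genes with neither in 3 of 41 (7.32%, 1.54 to 19.9%). By the 575 strongest regions these shares were 17.3% and 14.6% in replicate 1 and 10.2% and 7.32% in replicate 2, so the words did not clearly separate the genes. Words were searched on both strands of 300 bp windows centred on summits: the B box word was in 64.1% of the windows at tRNA genes and 2.87% of the other pooled windows, and the A box word in 71.6% and 39.7%. A match is a description of the letters. Both contrasts follow from the tRNA genes themselves, 62.9% of which held the A box word and 72.1% the B box word. Introns were held by 29 genes, 7 with an IDR summit (24.1%, 10.3 to 43.5%), against 88 of 583 without one (15.1%).

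The replicates ranked these regions with limited likeness. All 85 IDR peaks had an overlapping candidate region in both replicates. Of them 71 were among the 575 strongest of replicate 1 and 50 of replicate 2, with 40 among both. Over the 85 peaks the Spearman coefficient between replicate signals was 0.187, and over the 333 of the 426 pooled regions found in both it was 0.566. These are descriptions over regions of the same 2 libraries, and the 85 were selected for high pooled signal. Overlapping pooled regions could match the same replicate regions, so the pairs are not all distinct. At F10C1.t1, for example, the pooled regions of ranks 144 and 891 both took ranks 151 and 223. Among the 85 IDR peaks the 3 largest percentile differences were all stronger in replicate 1. C42D8.t1 ranked 113 in replicate 1 (signal 177.0) and 15575 in replicate 2 (signal 22), T22A3.t1 ranked 362 and 8931, and H06A10.t1 231 and 6987. In the pooled list they ranked 210, 525 and 371. Among weaker regions larger differences occurred in both directions, as at T01B4.t4 (ranks 1824 and 24085) and H08J11.t3 (17448 and 1347), named after their values were seen. There were 44 genes among the strongest of both replicates, 27 of them on X, and 4 genes with an IDR summit were among the strongest of neither.

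**Figure D5:**
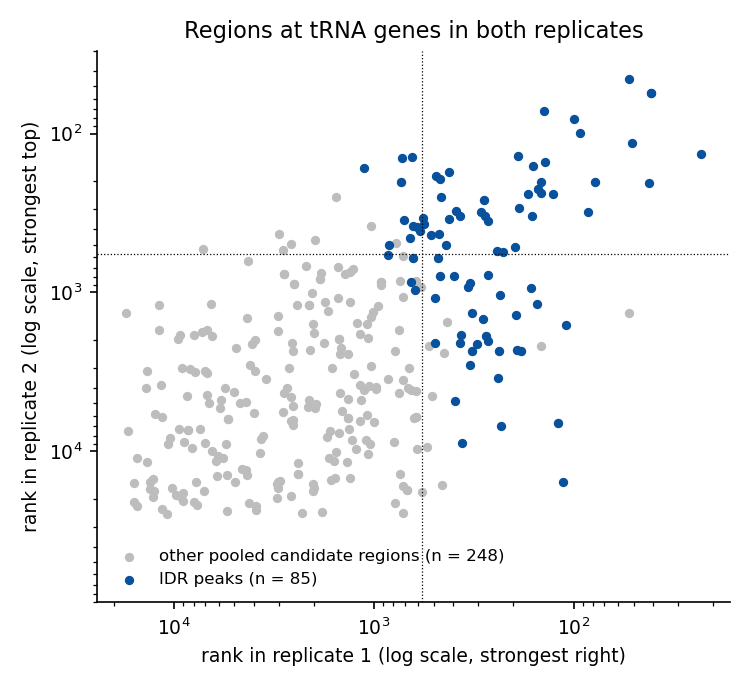
Each point is a pooled region at a tRNA gene with a region in both replicates, plotted by its rank in replicate 1 (x axis) and replicate 2 (y axis), both on log scales with the strongest at the right and top, and dotted lines mark rank 575. Of the 85 IDR peaks (dark) 40 lie in the upper right corner, and a few lie far down in replicate 2, to rank 15575.

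Of the 85 IDR summits at tRNA genes 9 also lay in a protein-coding promoter (10.6%; the window reaches 500 bp before and 100 bp past a 5′ end), against 165 of the other 490 IDR summits (33.7%). None of the 85 and 70 of the 490 (14.3%) lay within 250 bp of a snoRNA, snRNA, miRNA or rRNA gene. At the distance limit, the summits just inside 250 bp were at C24H11.t1 (242 bp, signal 60.5), Y102E9.t1 (243 bp, 59.9) and C28G1.t2 (243 bp, 58.2). Those just outside were at C02D4.t1 (254 bp, 129.7), F49E7.t2 (257 bp, 93.1) and Y110A2AL.t2 (264 bp, 114). None of the 6 was an IDR peak. Among 12 genes of the polymerase III machinery, only rpac-19, which encodes a subunit shared by polymerases I and III, had an IDR summit in its promoter (signal 283, rank 66), and among 7 tRNA maturation genes 0 did. Of all 19865 protein-coding genes 197 did (0.992%).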

How the data were processed

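The deposited ce11 narrowPeak lists were used, which by chromosome lengths match WBcel235. They hold, as deposited, a signal value and a −log10 q-value for each region from the authors' peak caller. Not given in the sources used here were the aligner, caller, thresholds and treatment of reads with several placements. Lists on ce10 were not used, and no coordinates were converted. Summits were joined to Ensembl release 115 genes. Isotypes came from RefSeq products, for 607 genes. Anticodons came from the best 5-pair stem with a 7-base loop starting at bases 24 to 32, with at least 4 pairs, for 606 genes, and of 603 genes with both, 595 had an anticodon for their isotype. Sequences were read from the RefSeq copy of WBcel235.

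Ranks were taken within each list. Shares have exact Clopper-Pearson 95% intervals, and no p-value was computed, because there is 1 group. With 2 replicates the spread is known only from both values. The members and lists were chosen with earlier results of these data known. Named genes are those at the 12 strongest IDR peaks, the strongest of each isotype, the 3 largest replicate differences, the 3 largest groups, the 3 strongest on X and the 3 summits on each side of the distance limit. The join was tested on simulated summits and recovered them in 20 of 20 runs. Alternatives were distance, list, replicate, cluster distance and copies. Rank bins, genome tiles and the downstream run of T were added after seeing the data. Python 3.11.15, pandas 2.3.3, numpy 2.4.6, scipy 1.17.1 and matplotlib 3.10.9 were used.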

Additional observations from a re-analysis of the deposited data

How the results depend on the processing

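The X share was above the autosomal share in 8 of 8 settings, by little and on few genes where only genes with no identical copy were used (8.77% and 8.14%), and genes outside protein-coding genes had a higher share than those inside in 8 of 8, while single genes were above clustered ones in 6 of 10. With a stricter IDR list, cut to the peaks above its middle rank, 42 genes and 38 peaks remained, with shares of 9.42% on X, 4.76% on autosomes, 7.06% of clustered, 6.79% of single, 6.55% of inside and 7.14% of outside genes, and a median offset of 11.0 bp. With pooled regions of q under 0.05 there were 125 regions at a median percentile of 97.7, the shares in that order were 28.6%, 16.7%, 19.4%, 23.1%, 19.7% and 24.2%, and the offset was 15.0 bp. With genes that have no identical copy there were 12 genes, 12 peaks, 91 regions and 9 isotypes, the shares were 8.77%, 8.14%, 6.45%, 8.93%, 5.88% and 10.7%, and the offset was 23 bp. A distance of 100 bp gave 9.82% on autosomes, 11.8% of clustered genes and an offset of 15.0 bp, and cluster distances of 1000 and 5000 bp gave offsets of 15.0 and 24.5 bp. These settings use fewer peaks, more peaks or fewer genes by construction. Without 1 replicate the ranges were 14.1 to 20.3% on X, 7.74 to 9.52% on autosomes, 11.8 to 15.3% of clustered, 10.2 to 14.0% of single, 9.31 to 11.7% of inside and 11.8 to 16.8% of outside genes, and 13.0 to 14.0 bp. For pooled regions, whose percentile then ran from 82.9 to 86.0, this used the whole list of the other replicate, chosen after seeing the data, and the planned use of its strongest regions alone was not run. Of the values recomputed 57 were classed as unchanged, 44 as moved and 0 as reversed. For counts, unchanged did not always mean within the replicate spread. The count of genes with an IDR summit was 95 in the main setting, with a replicate standard deviation of 16.3. Its values of 65 without replicate 1 and 135 with q under 0.05 were still classed as unchanged. No paired analysis was possible because both samples form 1 group.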

Other observations

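The B box word was also present in the 300 bp window of 27 of the 490 IDR summits that lay at no tRNA gene (5.51%). Of these 27, 13 lay within 250 bp of a snoRNA gene (48.1%), while 37 of the 463 without the word did (7.99%). snoRNAs guide chemical modification of ribosomal RNA. The strongest of the 27 ranked 2 in the pooled list, with signal 638, near C51F7.3, a snoRNA gene, and was named after its value was seen. The difference between 48.1% and 7.99% was not tested.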
